A study of Homo sapiens with 4 samples.

Results

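The 10 genes described here are NFE2L2, KEAP1, GCLC, GCLM, GSR, GPX4, TXNRD1, SRXN1, PRDX1 and NQO1, a set of NRF2 pathway and glutathione or thioredoxin antioxidant genes. They were chosen by symbol, each symbol matched 1 Ensembl identifier, and they are 10 of the 20348 genes of the deposited count table. RNA was sequenced from K562 cells, an established line from a chronic myeloid leukemia in blast crisis, and from THP-1 cells, an established line from an acute monocytic leukemia. Each line was kept for 72 h with the solvent DMSO or with 100 nM periplocin, a plant cardiac glycoside, which gives 4 libraries with 1 library per condition. The GEO labels call the control cultures blank, while their library names and the study's methods say DMSO. The labels name no genetic change in any of the 4 cultures, and each line is a single tumour-derived population.

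NRF2, the protein of NFE2L2, is a transcription factor that binds antioxidant response elements together with small MAF proteins. KEAP1 holds NRF2 in the cytoplasm and presents it to a CUL3 ubiquitin ligase, and oxidants or electrophiles that modify KEAP1 cysteines let NRF2 accumulate. Since that control acts on the protein, the mRNA of NFE2L2 does not measure NRF2 activity. Among the known NRF2 targets are both subunits of glutamate-cysteine ligase, which limits the rate of glutathione synthesis, and enzymes that keep glutathione and thioredoxin reduced.

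The antioxidant response element is the sequence NRF2 reads, so the members' promoter windows were searched for it. The letters TGACNNNGC, the core of the antioxidant response element, were searched on both strands of the RefSeq promoter windows (GRCh38.p14, from 250 bases before to 50 bases after a start site). The search covered 13 windows of 8 of the 10 members. No window of GSR or PRDX1 was searched, so the member counts that follow leave these genes out. The letters were found in 4 windows of 3 members, and in 13.3% of all 35116 promoter windows. The stricter letters TGANTCAGC, which overlap the first motif in part, were found in 0 member windows and in 1.36% of all windows. The 6 matches are shown with the bases around them, 5′ to 3′ on the strand of the gene, with the matched letters in capitals. Coordinates are those of the 9 capital letters, and forward or reverse is the direction of the motif relative to the gene.
KEAP1, second start, chr19:10502817-10502825, forward: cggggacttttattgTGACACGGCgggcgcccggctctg
KEAP1, second start, chr19:10502794-10502802, reverse: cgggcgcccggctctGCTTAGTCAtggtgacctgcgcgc
GCLM, chr1:93909456-93909464, reverse: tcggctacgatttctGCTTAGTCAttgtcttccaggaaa
TXNRD1, first start, chr12:104215680-104215688, forward: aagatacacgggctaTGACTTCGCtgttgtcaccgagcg
TXNRD1, first start, chr12:104215771-104215779, reverse: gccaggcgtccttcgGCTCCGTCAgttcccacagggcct
TXNRD1, second start, chr12:104286930-104286938, reverse: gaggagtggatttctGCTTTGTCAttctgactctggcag

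The matches in KEAP1 lie at positions -54 and -31 from the start, the match in GCLM at -34, and those in TXNRD1 at -99 and -8 of the first start and -102 of the second. A match of letters is a description of the window and no evidence of binding. The windows reach only 250 bases before a start, so that elements farther away could not be found. NQO1 and GCLC, the members that reached a 2-fold change with periplocin in one of the lines, had no match in these windows. Their 250 bases before the start are printed so that the windows can be read directly, both from the minus strand (NQO1 at chr16:69726561-69726810, GCLC at chr6:53545102-53545351).
NQO1: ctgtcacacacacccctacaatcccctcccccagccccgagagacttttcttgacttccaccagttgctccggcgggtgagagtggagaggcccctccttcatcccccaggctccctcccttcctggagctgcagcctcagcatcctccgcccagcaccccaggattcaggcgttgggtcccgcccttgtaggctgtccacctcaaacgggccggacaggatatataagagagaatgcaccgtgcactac
GCLC: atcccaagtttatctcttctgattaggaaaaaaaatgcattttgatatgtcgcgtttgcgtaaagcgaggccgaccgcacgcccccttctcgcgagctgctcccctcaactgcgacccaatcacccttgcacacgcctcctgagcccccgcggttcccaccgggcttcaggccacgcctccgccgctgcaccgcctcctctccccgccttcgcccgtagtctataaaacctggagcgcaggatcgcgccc

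The libraries held between 16381149 and 20622694 counts, and every member had at least 261 counts in each, so that all 10 members passed the filter of 1 CPM (a count scaled to the library total, in the usual CPM unit) in all 3 comparisons. The values deposited by the authors are expected counts per gene that were rounded here. Log2 ratios were scaled by TMM, and the intervals are exact 95% intervals that cover counting error only, since PCR copies and reads shared between transcripts are not independent molecules. With a single library per condition there is no spread between replicates, no test within a line is possible, and a gene is called higher or lower only where its ratio reached 2-fold. The markers fixed for each line went with its label: 11 of 11 erythroid markers were at least 2-fold lower in THP-1 DMSO than in K562 DMSO, and 10 of 10 tested myeloid markers were at least 2-fold higher, with MPO at 0 counts in K562. RNA levels are shares of a library, so a change in the cells present and a change in RNA per cell cannot be told apart.

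With periplocin, 1 of 10 members was called lower and 0 higher in K562, where 12.2% of the 12196 tested genes were called lower and 9.77% higher (21.9% in either direction). In THP-1, 1 of 10 was called higher and 0 lower, where 8.91% of 12666 genes were called higher and 11.0% lower (19.9% in either direction). The members' counts were thus close to the share of all genes in both lines. Log2 ratios within ±0.5 were found for 8 of 10 members in K562 and 7 of 10 in THP-1, against 51.2% and 54.2% of all tested genes. The median log2 ratio of the members was 0.09 in K562 and 0.29 in THP-1, beside -0.01 and -0.02 over all tested genes. Ratios were above 0 for 6 of 10 members in each line.

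**Figure D1:**
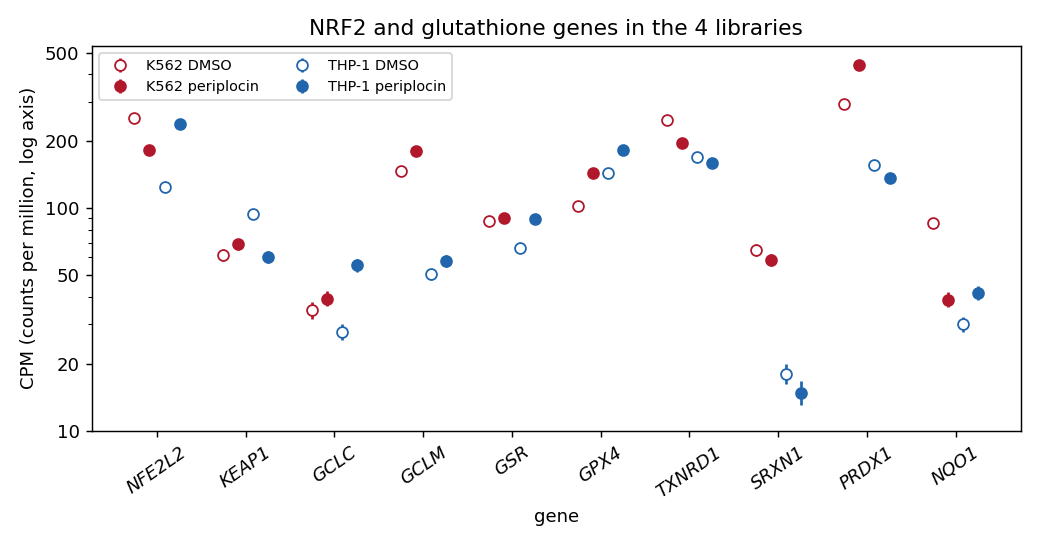
CPM of each member (log axis) in the 4 libraries, with red for K562, blue for THP-1, open points for DMSO and filled points for periplocin, and vertical lines for the exact 95% counting interval. NFE2L2 and NQO1 are lower with periplocin in K562 and higher in THP-1, and SRXN1 is lower in both THP-1 libraries than in both K562 libraries.

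NFE2L2 (ENSG00000116044, chromosome 2 of GRCh38, 177227595 to 177392697, minus strand, 14 transcripts in GENCODE 29) was at 254 CPM in K562 DMSO and 182 CPM in K562 periplocin, from 4167 and 3015 counts. In THP-1 it was at 125 CPM in DMSO and 238 CPM in periplocin, from 2573 and 4211 counts. The THP-1 DMSO library was the low one of the 4, and the THP-1 periplocin library stood between both K562 libraries. The log2 ratio of periplocin over DMSO was -0.49 (95% interval -0.56 to -0.43) in K562 and 0.94 (0.87 to 1.01) in THP-1, a 1.92-fold ratio that stayed below the threshold. The ratios had opposite signs in the lines, with a difference of 1.43 ± 0.05 (counting SE) on the log2 scale. AGPS, a gene of the opposite strand, shares 54 exon bases with NFE2L2 in the annotation and had between 1947 and 2604 counts.

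KEAP1 (ENSG00000079999, chromosome 19, 10486120 to 10503741, minus strand) moved the other way in each line, and neither ratio reached 2-fold. Its level was 61.7 CPM in K562 DMSO, 68.8 CPM in K562 periplocin, 94.3 CPM in THP-1 DMSO and 60.3 CPM in THP-1 periplocin. The THP-1 DMSO library was the only high one, and the other 3 lay within 10 CPM of each other. The log2 ratio was 0.15 (0.02 to 0.27) in K562 and -0.63 (-0.74 to -0.52) in THP-1.

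Per kb of exon, the quantity that allows a comparison between genes, NFE2L2 exceeded KEAP1 by 2.59 times in K562 DMSO and 1.67 times in K562 periplocin. In THP-1 the ratio was 0.833 in DMSO and 2.48 in periplocin. The log2 change of this ratio was -0.64 ± 0.07 (counting SE) in K562 and 1.57 ± 0.07 in THP-1. The ratio below 1 in THP-1 DMSO rests on the lengths used, which are the union of all annotated exons (5979 bases for NFE2L2 and 3761 for KEAP1), since in CPM NFE2L2 was above KEAP1 in that library too (125 and 94.3 CPM). The log2 changes of the ratio do not depend on the lengths.

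Glutathione is made by glutamate-cysteine ligase, a catalytic subunit from GCLC and a modifier subunit from GCLM, followed by glutathione synthetase. GCLC (ENSG00000001084, chromosome 6, 53497341 to 53616970, minus strand) was at 34.7 CPM in K562 DMSO and 39.1 CPM in K562 periplocin, from 568 and 647 counts. THP-1 had 27.7 CPM in DMSO and 55.2 CPM in periplocin, from 572 and 978 counts. The THP-1 periplocin library was the high one and the other 3 lay between 27.7 and 39.1 CPM. In K562 the log2 ratio was 0.16, with an interval from -0.003 to 0.33 that includes 0. GCLC rose 2.01-fold in THP-1 (log2 ratio 1.00, 0.85 to 1.16), the one member called higher there, and the interval reaches below the threshold. This call was lost at 0.99 and 0.97 when total counts, with or without mitochondrially encoded genes, took the place of TMM.

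GCLM (ENSG00000023909, chromosome 1, 93885205 to 93909456, minus strand), which carries a match in its window at -34, was at 146 CPM in K562 DMSO and 181 CPM in K562 periplocin. THP-1 had 50.3 CPM in DMSO and 57.8 CPM in periplocin. The lines were far apart, and the treatment moved the level little in both. The log2 ratio was 0.30 (0.22 to 0.37) in K562 and 0.21 (0.09 to 0.34) in THP-1, and these differed by -0.08 ± 0.07 (counting SE). GCLM over GCLC, per kb of exon, was 6.72 in K562 DMSO and 7.37 in K562 periplocin, with a log2 change of 0.13 ± 0.09. It was 2.89 and 1.67 in the DMSO and periplocin libraries of THP-1, with a log2 change of -0.79 ± 0.10. Modifier subunit mRNA thus fell relative to catalytic subunit mRNA in THP-1. The ratios themselves rest on the exon lengths used (8646 bases for GCLC and 5420 for GCLM), while their log2 changes do not.

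GSR (ENSG00000104687), glutathione reductase, returns oxidised glutathione to its reduced form with NADPH. It was at 87.7 CPM in K562 DMSO, 90.5 CPM in K562 periplocin, 66.3 CPM in THP-1 DMSO and 88.9 CPM in THP-1 periplocin. The THP-1 DMSO library was the low one, and the other 3 lay within 3 CPM. The log2 ratio was 0.03 (-0.07 to 0.14) in K562, whose sign changed under another scaling (-0.01), and 0.43 (0.33 to 0.54) in THP-1.

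GPX4 (ENSG00000167468, chromosome 19, 1103926 to 1106791, plus strand) reduces lipid hydroperoxides in membranes with glutathione and protects from ferroptosis. Its level was 103 CPM in K562 DMSO, 144 CPM in K562 periplocin, 143 CPM in THP-1 DMSO and 182 CPM in THP-1 periplocin. Within each line the periplocin library was the higher one. The log2 ratios were 0.48 (0.39 to 0.57) in K562 and 0.36 (0.29 to 0.43) in THP-1, below 2-fold in both.

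GPX4 and TXNRD1 are selenoproteins, in which the codon TGA is read as selenocysteine, and their mRNAs therefore carry an in-frame TGA. The codon, as GENCODE 29 marks it, is shown in capitals with the coding bases around it, since it lies inside the GPX4 reading frame and just before the end of that of TXNRD1, where 1 codon and the stop follow it. It is marked in 8 GPX4 transcripts at chr19:1105403-1105405 and in 7 TXNRD1 transcripts at chr12:104348413-104348415.
GPX4: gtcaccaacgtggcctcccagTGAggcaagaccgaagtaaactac
TXNRD1: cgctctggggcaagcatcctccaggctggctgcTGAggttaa

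TXNRD1 (ENSG00000198431, chromosome 12, 104215779 to 104350305, plus strand), cytosolic thioredoxin reductase, was at 248 CPM in K562 DMSO and 197 CPM in K562 periplocin, and in THP-1 at 170 CPM with DMSO and 159 CPM with periplocin. Both K562 libraries were above both THP-1 libraries. The log2 ratio with periplocin was -0.34 (-0.41 to -0.28) in K562 and -0.09 (-0.16 to -0.01) in THP-1. TXNRD1 and SRXN1 were the members with a ratio below 0 in both lines.

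SRXN1 (ENSG00000271303, chromosome 20, 646615 to 653370, minus strand), sulfiredoxin, repairs peroxiredoxins whose cysteine has been overoxidised. Its level was 64.9 CPM in K562 DMSO, 58.3 CPM in K562 periplocin, 17.9 CPM in THP-1 DMSO and 14.7 CPM in THP-1 periplocin, the last from 261 counts. The libraries were ordered by line rather than by treatment. The log2 ratio was -0.17 (-0.29 to -0.04) in K562 and -0.27 (-0.50 to -0.04) in THP-1. AL121758.1, which shares 2292 exon bases with SRXN1 on the same strand, had 0 counts in all 4 libraries, so that reads of the shared exons were not assigned to it.

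PRDX1 (ENSG00000117450, chromosome 1, 45511036 to 45523047, minus strand), a peroxiredoxin that SRXN1 repairs, reduces hydrogen peroxide with electrons from thioredoxin. It was at 292 CPM in K562 DMSO, 438 CPM in K562 periplocin, 156 CPM in THP-1 DMSO and 137 CPM in THP-1 periplocin. The K562 periplocin library was the high one. The log2 ratio was 0.57 (0.52 to 0.63) in K562 and -0.18 (-0.25 to -0.10) in THP-1, with opposite signs and a difference of -0.75 ± 0.05 (counting SE). PRDX1 has 1 annotated pseudogene and shares 379 exon bases with MMACHC on the opposite strand (214 to 383 counts), and it is not stated whether the counting used strand.

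NQO1 (ENSG00000181019, chromosome 16, 69706996 to 69726951, minus strand), a quinone reductase widely used as a readout of NRF2, was at 85.5 CPM in K562 DMSO and 38.8 CPM in K562 periplocin, from 1400 and 642 counts. THP-1 had 30.0 CPM in DMSO and 41.7 CPM in periplocin, from 619 and 739 counts. K562 DMSO was the high library and the other 3 lay between 30.0 and 41.7 CPM. NQO1 fell 2.22-fold in K562 (log2 ratio -1.15, -1.29 to -1.02), the one member called lower there, and its log2 ratio in THP-1 was 0.49 (0.33 to 0.64). The lines differed by 1.64 ± 0.10 (counting SE) on the log2 scale, the largest such difference among the members. In the same K562 pair the erythroid markers went from a summed 2172 to 10691 CPM, with 10 of 11 called higher, and counts of mitochondrially encoded genes went from 5.62% to 2.07% of the library. Their part in the K562 values of the members was not tested.

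**Figure D2:**
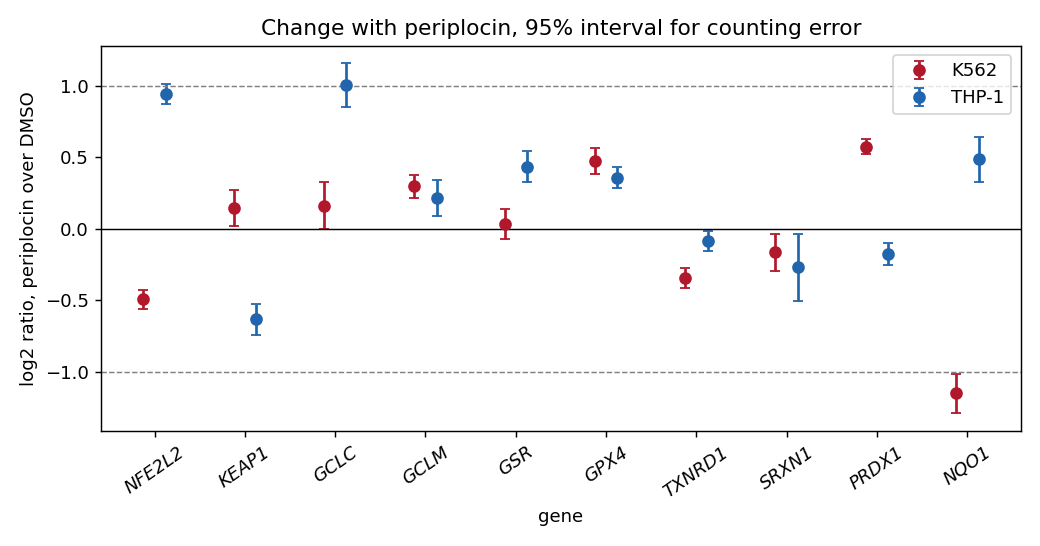
Log2 ratio of periplocin over DMSO for each member in K562 (red) and THP-1 (blue), with exact 95% counting intervals and dashed lines at 2-fold. Only NQO1 in K562 (-1.15) and GCLC in THP-1 (1.00) reach a dashed line, and NFE2L2, KEAP1, PRDX1 and NQO1 lie on opposite sides of 0 in the lines.

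In THP-1 the summed myeloid markers went from 1761 to 2383 CPM with periplocin, with 3 of 11 called higher and 1 lower, and the mitochondrial share from 5.24% to 3.92%. The summed erythroid markers were at 11.2 and 8.58 CPM there, with GYPB at 0 in both libraries and HBG2 at 0 in periplocin. Whether these shifts bear on GCLC, the one THP-1 call, was not tested.

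The lines were also compared after 72 h in DMSO, with 1 library per line. In DMSO, 3 of 10 members were called lower in THP-1 than in K562 and 0 higher, where 21.7% of 13302 tested genes were lower and 23.7% higher (45.4% in either direction). SRXN1 was 3.33-fold lower (log2 ratio -1.74, -1.91 to -1.57), GCLM 2.67-fold lower (-1.42, -1.52 to -1.31) and NQO1 2.62-fold lower (-1.39, -1.53 to -1.25). NFE2L2 had a log2 ratio of -0.91 (-0.98 to -0.84), which passed 2-fold when total counts were used for scaling (-1.03). PRDX1 was at -0.79, TXNRD1 at -0.42, GSR at -0.28 and GCLC at -0.20, and KEAP1 at 0.73 and GPX4 at 0.60 were the members with more RNA in THP-1. The median over the members was -0.60, beside 0.03 over all tested genes. These ratios use the same DMSO libraries as the periplocin ratios, so that a high or low DMSO value enters both.

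Within each library the order of the members was read from CPM per kb of exon. PRDX1 was the highest in K562 DMSO (192 CPM per kb), K562 periplocin (288) and THP-1 DMSO (102). GPX4 came next in these 3 libraries, at 50.9, 71.2 and 70.9 CPM per kb. In THP-1 periplocin GPX4 (90.0) and PRDX1 (89.8) could not be separated, since their counting intervals overlapped. NFE2L2 held the third place in K562 DMSO (42.5), the fourth in K562 periplocin (30.4), where its interval overlapped that of TXNRD1 (29.4), the fifth in THP-1 DMSO (20.9) and the third again in THP-1 periplocin (39.7). GCLM, NQO1, SRXN1 and GSR formed a run of overlapping neighbours in K562 DMSO, from 26.9 to 23.3 CPM per kb. GCLC was the lowest in the first 3 libraries at 4.01, 4.52 and 3.21 CPM per kb, and in THP-1 periplocin its 6.38 overlapped the 5.46 of SRXN1. The order rests on the lengths used, the union of all annotated exons (8646 bases for GCLC and 2698 for SRXN1). In CPM GCLC was above SRXN1 in THP-1 DMSO (27.7 and 17.9) and THP-1 periplocin (55.2 and 14.7), and below it in both K562 libraries.

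A model over all 4 libraries, with a term for the line and one for periplocin, asked for a change shared by both lines. Its 1 residual degree of freedom measures how unequal the lines' responses were, and its common biological coefficient of variation was 0.317. Of 13584 genes, 0.00% had an adjusted p under 0.05 by edgeR's quasi-likelihood test, and 1500 were below 0.05 before adjustment. By DESeq2 the same model called 0.920% (125 genes), and 1175 genes were below 0.05 before adjustment. In both tools 0 of 10 members were called, and 0 were below 0.05 before adjustment. GCLC had the smallest edgeR adjusted p among them (log2 change 0.58, adjusted p = 0.561), followed by GPX4 (0.41, adjusted p = 0.591). The member with the lowest value was NQO1 (-0.34, adjusted p = 0.802), and NFE2L2 had the largest adjusted p (0.22, adjusted p = 0.858). A fit with this error does not show that the members did not change.

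Another 12 lists of related genes give the setting of the members. Some genes are shared between lists, among them SLC7A11, GPX1 and TXNRD2, and are counted in each of their lists below. Counted once each, 11 of 131 tested genes were called higher in K562 (8.40%) and 19 lower (14.5%), and in THP-1 14 of 134 were called higher (10.4%) and 12 lower (8.96%). These shares were near those of all genes (9.77% higher and 12.2% lower in K562, 8.91% and 11.0% in THP-1). The medians of the list genes were 0.04 in K562 and 0.06 in THP-1 on the log2 scale. Called in the same direction in both lines were 3 genes higher (ABCC2, ABCB6 and CYBB) and 4 lower (GSS, GGCT, GSTZ1 and TXNRD3) of 126 tested in both, or 2.38% and 3.17%, beside 2.04% and 2.89% of all 11083 genes tested in both.

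**Figure D3:**
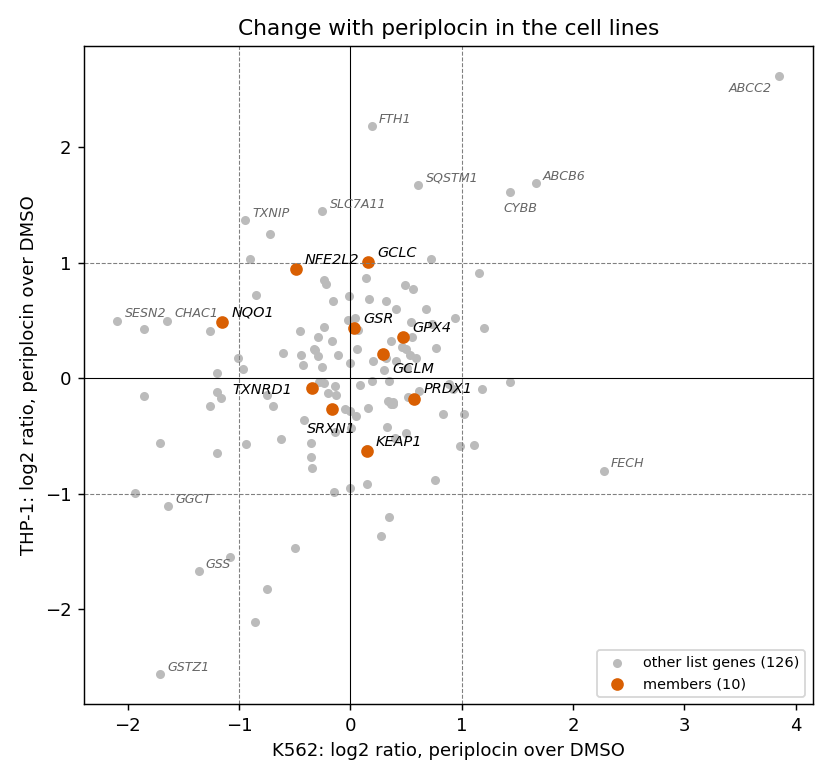
Log2 ratio with periplocin in K562 (x axis) and in THP-1 (y axis) for the 10 members (orange) and 126 other list genes tested in both lines (grey), with dashed lines at 2-fold. The members lie near the centre, and ABCC2, FTH1 and SQSTM1 are among the list genes above the THP-1 line.

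Among partners and degradation factors of NRF2, 0 of 16 were called higher and 1 lower in K562, and 2 of 15 higher and 0 lower in THP-1. BACH2, a repressor that competes for antioxidant response elements, fell from 301 to 69 counts in K562 (log2 ratio -2.14, -2.55 to -1.77). BACH1 of the same list had more counts in K562, 1998 and 2622, with log2 ratios of 0.37 there and 0.32 in THP-1. SQSTM1, the autophagy receptor p62 that binds KEAP1, rose from 3011 to 8193 counts in THP-1 (1.67, 1.61 to 1.74), and went from 4658 to 7239 in K562 (0.61). The other THP-1 call was MAFF, a small MAF partner, with 26 and 53 counts. NFE2L1, the relative of NFE2L2 that drives proteasome genes, had the same signs as NFE2L2, with log2 ratios of -0.85 in K562 and 0.72 in THP-1. CUL3, the scaffold of the ligase, was at 0.74 and 0.47. In THP-1 the kinase GSK3B was at 0.81, the ligase SYVN1 at 0.67 and the KEAP1-binding phosphatase PGAM5 at -0.98, a value that passed 2-fold when total counts without mitochondrially encoded genes were used for scaling.

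For glutathione supply and turnover, 0 of 11 genes were called higher and 5 lower in K562, and 2 of 11 higher and 2 lower in THP-1. GSS, glutathione synthetase, the enzyme that acts after GCLC and GCLM, fell in K562 from 1417 to 560 counts (-1.36, -1.51 to -1.22) and in THP-1 from 853 to 228 (-1.67, -1.89 to -1.46). GGCT, which degrades gamma-glutamyl dipeptides, also fell in both, from 2030 to 664 and from 1200 to 474 counts. CBS and CTH, which make cysteine from homocysteine, fell in K562 by 1.20 and 1.01 on the log2 scale, and CHAC1, a glutathione-degrading enzyme, fell by 1.65. The call of CTH was lost with DESeq2 size factors or total counts, which left 4 genes lower. SLC7A11, the cystine carrier and an NRF2 target, rose in THP-1 from 494 to 1147 counts (1.44, 1.29 to 1.60), while its value in K562 was -0.25. GGT7 was the other gene called higher in THP-1, from 124 to 213 counts, and this call was lost with total counts, which left 1 gene higher. SLC3A2, the heavy chain that pairs with SLC7A11, was at 0.54 in K562 and 0.49 in THP-1.

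The other NRF2 target genes had 5 called higher and 2 lower of 22 in K562 (22.7% and 9.09%), and 6 higher and 2 lower of 23 in THP-1 (26.1% and 8.70%). Their medians, 0.19 and 0.18, were near those of the members. HMOX1, the heme-degrading enzyme, rose in THP-1 from 40 to 344 counts (3.32, 2.86 to 3.85) and had 4 and 16 counts in K562, under 1 CPM. FTH1, ferritin heavy chain, rose in THP-1 from 8513 to 32878 counts (2.18) and was at 0.19 in K562, and it has 25 annotated pseudogenes that can share its reads. In K562 the genes that rose were FECH, ABCB6, BLVRB and BLVRA of heme synthesis, porphyrin transport and bile pigment formation, with log2 ratios of 2.27, 1.66, 1.15 and 1.11, and ABCC2 with 3 and 51 counts (3.85, 2.43 to 6.39). The erythroid markers rose in the same library, as given above, and their part in these 4 heme genes was not tested. ABCC2, an export pump of glutathione conjugates, rose in THP-1 too, from 44 to 232 counts. The genes that fell were UGDH, which makes UDP-glucuronate, and TRIM16 in K562 (-1.26 and -1.20), and the aldo-keto reductases AKR1B1 and AKR1C2 in THP-1 (-1.11 and -1.20). In DMSO, 13 of these 24 genes were called lower and 4 higher in THP-1 than in K562, with a median of -1.17.

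Among thioredoxin, glutaredoxin and peroxiredoxin genes, 0 were called higher and 3 lower of 20 in K562, and 1 higher and 1 lower of 21 in THP-1. SESN2, a stress-induced sestrin, fell from 6525 to 1556 counts in K562 (-2.09) and was at 0.50 in THP-1. TXNIP, the inhibitor of thioredoxin, rose in THP-1 from 11272 to 24790 counts (1.37) and was at -0.94 in K562. TXN itself, the substrate of TXNRD1, was at 0.15 in K562 and -0.61 in THP-1, and TXNRD3 was lower in both lines, at -1.08 and -1.54. TXNRD2, the mitochondrial thioredoxin reductase, was at 0.68 and 0.60. The glutaredoxin GLRX2 was at -0.69 in K562, and in THP-1 GLRX was at 0.81 and the methionine sulfoxide reductase MSRB3 at -0.79. PRDX2, an abundant red cell peroxiredoxin, had a K562 log2 ratio of 0.89 beside the 0.57 of PRDX1.

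Of the glutathione peroxidases other than GPX4, 2 of 2 tested were called lower in K562, GPX1 with 19 and 5 counts and GPX8 with 53 and 11. In THP-1 GPX1 had 6088 and 6958 counts (0.42), and GPX7 fell from 564 to 192 (-1.32), the 1 call of 2. Glutathione transferases had 2 higher and 2 lower of 12 in K562, and 1 higher and 3 lower of 13 in THP-1. GSTM1 fell in THP-1 from 835 to 173 counts (-2.04), where MGST3 rose from 780 to 1361 (1.03), and GSTZ1 was lower in both lines (-1.71 and -2.56). In K562 MGST1, a microsomal transferase, fell from 736 to 327 counts (-1.20), and GSTM2 rose from 123 to 254 (1.02), a call lost when total counts without mitochondrially encoded genes were used. GSTO1 was at 0.77 in K562, and in THP-1 MGST2 was at 0.87, GSTCD at -0.68 and GSTM4 at -0.56. GSTP1, a cytosolic transferase, had 5941 and 10771 counts in K562 (0.83) and 2758 and 1893 in THP-1 (-0.31). Reads of the similar GSTM genes can be shared between them. Superoxide dismutases and catalase had 0 of 4 called in either line. Their median log2 ratio was 0.85 in K562, with 3 of 4 above 0, and -0.14 in THP-1, with 2 of 4 above 0. With DESeq2 size factors 1 of the 4 was called higher in K562.

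**Figure D4:**
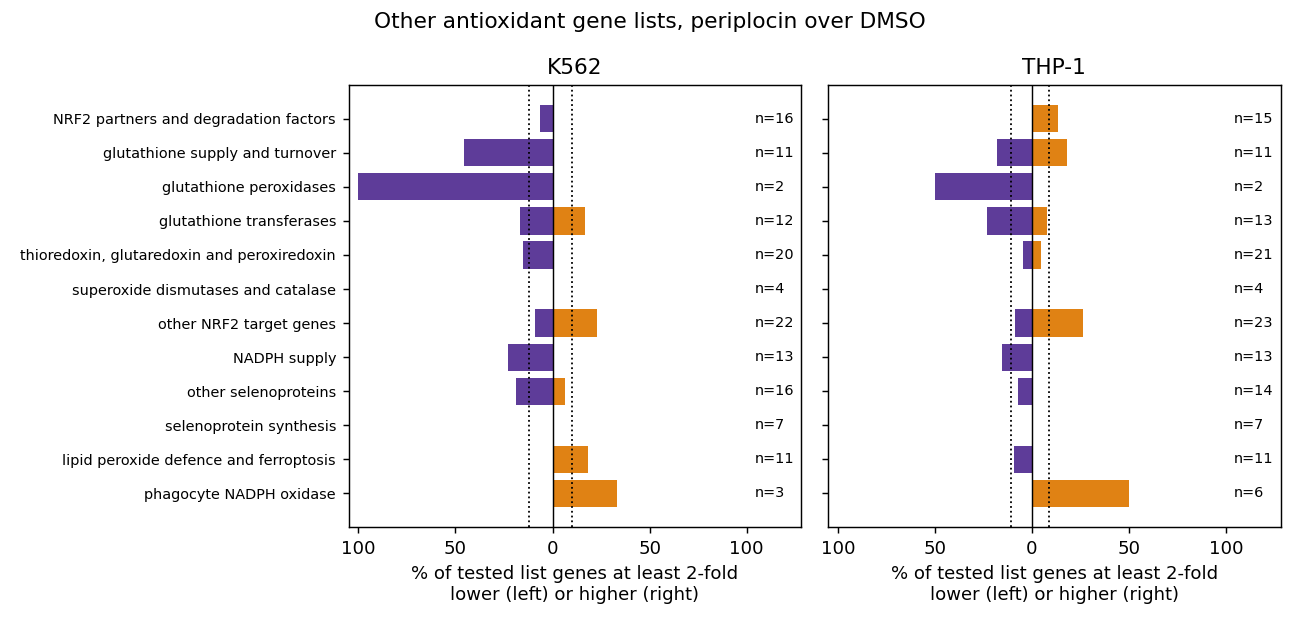
Percent of tested genes in each of the 12 other lists at least 2-fold lower (left, purple) or higher (right, orange) with periplocin in K562 and THP-1, with the number tested at the right and dotted lines at the share of all genes. Past the higher line in both cell lines are the other NRF2 targets (5 of 22 and 6 of 23) and phagocyte NADPH oxidase (1 of 3 and 3 of 6). Past the lower line in both are glutathione supply (5 of 11 and 2 of 11), glutathione peroxidases (2 of 2 and 1 of 2), glutathione transferases (2 of 12 and 3 of 13) and NADPH supply (3 of 13 and 2 of 13), and glutathione supply also passes the higher line in THP-1 (2 of 11). With only 2 or 3 genes tested, 1 call is enough to pass a line, and no list was tested against the share of all genes.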

How the data were processed

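The authors enriched poly-A RNA, made libraries with a NEBNext Ultra kit and deposited 1 table with the expected count of each gene in each library, without normalization or pooling. HISAT2, StringTie 1.3.1 and build hg38 stand in the submitters' processing notes, without their role. Between 87.4% and 88.3% of values are whole, and 0 columns were not used. Counts were rounded. TMM factors (edgeR 4.0.16, R 4.3.3) were computed for each pair of libraries, ratios had a prior count of 0.5, and a call was at least 2-fold among genes of at least 1 CPM in one or both libraries. The fit of 4 libraries used genes that reached 10 counts in 2 or more libraries and Benjamini-Hochberg adjustment over all of them, with DESeq2 1.42.0 as the alternative. The ratios and the edgeR fit were tried on simulated counts, with counting error only and the same changes in both lines. That checks the calculation and not how the fit behaves with these libraries. Members and lists were chosen with earlier results of these data known. Of 154 list genes, 152 were in the table.

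Coordinates and exon lengths (union of exons) are from GENCODE 29 on GRCh38, which held 20118 of the 20348 identifiers, and promoters from RefSeq. Named in the text are all members, every gene past 2-fold in lists of 8 or fewer, and in longer lists up to 5 genes per line with the largest change at a mean of at least 10 CPM. Other names, such as ABCC2, GSTZ1, TXNRD3, GGT7, MAFF, TRIM16, AKR1C2 and SELENOM, stand for small counts and were picked once their values had been seen. BACH1 was likewise picked with its values known, to stand beside BACH2. Alternatives were other scalings, filters, a 1.5-fold threshold and a prior count of 2. Python 3.11.15 with pandas 2.3.3 and scipy 1.17.1 was used for intervals.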

Additional observations from a re-analysis of the deposited data

Results flagged for a closer look

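Among the 10 members and 37 other named genes called in one or both lines, 14 had log2 ratios of opposite signs with periplocin. Each had a counting interval that left out 0 in both lines, and 4 of them are members. Of the other lists, each gene once, 36 of 126 genes tested in both lines (28.6%) had opposite signs by this rule. By the same rule 20.1% of the 11083 genes tested in both lines had opposite signs, and 23.3% of the 6587 of these that reached 261 counts, the lowest member count, in every library. With 1 library per condition the difference was not tested for any of them. As THP-1 minus K562 on the log2 scale, the differences of the members were 1.43 for NFE2L2, 1.64 for NQO1, -0.78 for KEAP1 and -0.75 for PRDX1. NQO1 was called lower in K562, and the other 3 members passed 2-fold in neither line.

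The other 10 were found among 37 named genes called in one or both lines. In THP-1 the value exceeded that in K562 by 2.59 for SESN2, 2.31 for TXNIP, 2.28 for GPX1 (19 and 5 counts in K562), 2.15 for CHAC1 and 1.70 for SLC7A11. It was below that in K562 for FECH (-3.07), BLVRA (-1.69), MTHFD1 (-1.65), GSTM2 (-1.32) and NCOA4 (-1.27).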

How the results depend on the processing

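No paired analysis was possible because each condition has 1 library and thus no replicate numbers to pair by, but the fit of 4 libraries already holds the cell line as a term. Without any 1 library that fit has no residual degrees of freedom, so none was left out. Over the scalings and a prior count of 2, a member's log2 ratio moved by at most 0.13, and filters do not enter it. In the comparison of the DMSO libraries, total counts shifted every ratio by -0.12, so that 4 members were lower in THP-1. Only GSR in K562 changed sign (lowest -0.01). Members called higher in THP-1 numbered 0 with total counts, with or without mitochondrially encoded genes, and 2 at 1.5-fold, where 1 was called lower. At 1.5-fold, 2 members were higher and 5 lower in THP-1 DMSO than in K562 DMSO. Of the other lists, each gene once, 18 were higher in K562 without a filter. At 1.5-fold 25 were higher and 31 lower in K562, 27 higher and 24 lower in THP-1, and 59 lower in THP-1 DMSO than in K562 DMSO. The share of all genes was taken at 2-fold only, so the 1.5-fold counts of members and lists have no share beside them and cannot be weighed. The fit of 4 libraries called 125 genes by DESeq2 and 1 by edgeR without a filter. Of the other counts and values, 70 and 477 stayed close to those reported and 75 moved, the latter all single genes or single lists. What limits every value is the single library per condition, since the counting intervals leave out the variation between cultures.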

Other observations

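Lists next to the glutathione and thioredoxin systems also held called genes. Of all tested genes, 9.77% were called higher and 12.2% lower in K562, and 8.91% higher and 11.0% lower in THP-1. The lists are short, and no list was tested against these shares. NADPH supply, which feeds GSR, TXNRD1 and NQO1, had 0 of 13 genes called higher in either line, 3 lower in K562 and 2 lower in THP-1. PGLS of the pentose phosphate pathway fell from 634 to 168 counts in K562 (-1.94) and was at -0.99 in THP-1, where it passed 2-fold with total counts. IDH2 fell from 1438 to 446 in K562 (-1.71), and MTHFD2 fell from 7900 to 3596 in K562 (-1.16). PGD of the pentose phosphate pathway was at -0.94 in K562 and -0.57 in THP-1, and ME1, malic enzyme, was at 0.69 in THP-1. In THP-1 NADK2, the mitochondrial NAD kinase, fell from 1235 to 297 counts (-1.82) and MTHFD1 from 3962 to 1308 (-1.37). Phagocyte NADPH oxidase, which makes superoxide, had 3 of 6 genes called higher in THP-1, CYBB from 321 to 837 counts, NCF1 (a gene with near-identical pseudogenes) from 583 to 1134 and NCF4 from 2568 to 5107. CYBB also rose in K562, from 90 to 249 counts, the 1 call of 3 tested there.

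Other selenoproteins had 1 gene called higher and 3 lower of 16 in K562, and 0 higher and 1 lower of 14 in THP-1. SELENON fell from 1707 to 479 counts in K562 (-1.86), and SELENOM had 15 and 77 counts there. Further K562 values were 0.93 for SELENOP, -0.75 for SEPHS2 and 0.56 for SELENOH, and THP-1 values were -0.91 for SELENOW, -0.47 for MSRB1 and 0.40 for SELENOS. The factors of selenoprotein synthesis had 0 of 7 called in either line. Of lipid peroxide defence and ferroptosis genes, 2 of 11 were called higher in K562, TFRC from 10500 to 28826 counts (1.43) and NCOA4 from 4192 to 9679 (1.18), beside the rise of the erythroid markers whose part was not tested. In THP-1 DHODH, which reduces ubiquinone in mitochondria, fell from 340 to 67 counts (-2.10), the 1 call of 11. LPCAT3 was at 0.92 and the iron exporter SLC40A1 at 0.33 in K562, and in THP-1 ALOX5 was at 0.50, COQ2 at 0.22, ACSL4 at 0.20 and VKORC1L1 at -0.15.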
